A study of Arabidopsis thaliana with 12 samples.

Results

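The genes described here are 10 of the 36 loci of the DOF family of Arabidopsis thaliana, a group of plant transcription factors whose name stands for DNA binding with one finger. They were chosen by locus identifier. They comprise OBP1 (AT3G50410), OBP2 (AT1G07640), OBP3 (AT3G55370), OBP4 (AT5G60850), DAG1 (AT3G61850), DAG2 (AT2G46590), DOF1.4 (AT1G28310), DOF1.8 (AT1G64620), DOF2.2 (AT2G28810) and DOF3.1 (AT3G21270). All 10 were among the 28775 loci of the count files, and all 10 passed the filter on low counts that left 19733 loci for testing. None of them belongs to the CYCLING DOF FACTOR group, the DOF genes named for their daily rhythm.

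RNA was sequenced from root meristems of Col-0 seedlings with the transgene pRPS5A::DOF2.1-GR. In it, the promoter of RPS5A, which is active in dividing cells, drives a fusion of the transcription factor DOF2.1 to the hormone-binding part of the glucocorticoid receptor. Dexamethasone (DEX) lets such a fusion enter the nucleus. Seedlings were 5 days old, grown at 22 °C, and each sample held 300 root tips. All samples had the same cold treatment (stratification), at 4 °C and of equal length. Each of 4 groups had 3 biological repeats, all carrying the transgene: a control collected at 1 h, and seedlings on 10 µM DEX collected after 1 h, 2 h or 4 h. The labels give no medium for the control and no number of independent transgenic lines. Controls of the 2 later times, and plants lacking the transgene but given DEX, were not analysed here. Comparisons of 2 h and 4 h with the control therefore contain elapsed time as well as DEX, which cannot be told apart.

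DOF proteins bind DNA through a single zinc finger held by 4 cysteines and recognise short sites with an AAAG core. The OBP proteins were first found as partners of OBF factors, which are bZIP proteins of the TGA family, and the DAG proteins through their effect on seed germination. In roots, DOF proteins are best known from vascular tissue, and OBP4 from root hairs.

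The coding sequences of the zinc finger show how closely the members resemble each other and DOF2.1, which matters because reads of near-identical copies could be assigned to the wrong locus. The stretch of 87 bases runs from the first to the last of the 4 cysteine codons, which are in capitals, in the RefSeq annotation of assembly TAIR10.1. The 5 members shown with DOF2.1 are the closest pair, the member least like DOF2.1, the member that fell furthest among the well-counted ones, and the member that rose.
DOF2.1: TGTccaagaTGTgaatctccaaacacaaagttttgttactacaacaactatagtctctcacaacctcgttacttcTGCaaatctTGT
DAG1: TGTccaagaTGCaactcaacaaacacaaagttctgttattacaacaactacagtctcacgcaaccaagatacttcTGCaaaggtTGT
DAG2: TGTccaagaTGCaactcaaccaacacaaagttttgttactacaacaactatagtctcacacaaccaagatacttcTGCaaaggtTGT
DOF1.8: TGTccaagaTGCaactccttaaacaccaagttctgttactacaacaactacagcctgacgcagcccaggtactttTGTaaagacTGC
OBP2: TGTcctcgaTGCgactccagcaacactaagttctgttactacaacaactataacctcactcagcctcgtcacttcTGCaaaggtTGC
DOF2.2: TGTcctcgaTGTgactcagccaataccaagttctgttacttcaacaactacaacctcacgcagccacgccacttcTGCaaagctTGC
The DAG1 stretch lies at chr3:22896401-22896487 and the DAG2 stretch at chr2:19134039-19134125, both on the forward strand. The DOF1.8 stretch lies at chr1:24007552-24007638 on the forward strand, the DOF2.2 stretch at chr2:12364343-12364429 on the forward strand, and the OBP2 stretch at chr1:2355382-2355468 on the reverse strand. The DOF2.1 stretch lies at chr2:12200016-12200102 on the reverse strand. DAG1 and DAG2 were identical at 82 of 87 bases, the highest value among 45 pairs of members, whose median identity was 78.2%. Of the 87 bases, 47 were the same in all 10 members. DAG2 was the member most like DOF2.1, with 75 identical bases, and DOF1.8 the least like it, with 64. Over whole coding sequences, the longest run of identical bases was 50 between DAG1 and DAG2, 36 between DAG2 and DOF2.1 and at most 30 between any other pair of members. No member overlapped another annotated locus. All 120 of the 120 deposited values of the members lay within 0.001 of a whole number. A read assigned whole to the wrong locus would also give a whole number, so this cannot show that reads were assigned correctly.

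Library totals ran from 14142082 to 17522834 counts. Replicate libraries differed by 3.08 to 19.8 in chi-square per locus, and the highest value was that of DEX 1 h replicates 1 and 3. No 2 replicates of a group therefore agreed within sampling noise, and libraries of different groups were not compared in this way.

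The 4 shoot and leaf markers together reached 2.72 to 5.18 normalized CPM (counts scaled to a common library total) per library. The 7 root meristem markers were detected in every group, and their sum of 822 to 1180 CPM was mostly RPS5A, with group means of 795 to 1010 CPM. Of these 7, 3 were called lower at 1 h (PLT1, PLT2 and SCR), and at 2 h and 4 h 4 were lower and 2 higher. Among all loci tested, 4.59% were called lower and 5.03% higher at 1 h. At 2 h the shares were 18.5% and 16.5%, and at 4 h 25.6% and 24.7%. WOX5, a gene of the quiescent centre, had log2 changes of -1.57 at 2 h and -2.27 at 4 h (edgeR adjusted p 0.000160 and 4.14e-06). SCR, PLT1 and SHR were the others called lower at both times, with SCR at -0.38 and -0.75, while CYCB1;1 (0.33 and 0.43) and RPS5A (0.26 at each time) were higher. Of the 7 markers of differentiated root tissue, 0 were called at 1 h and 3 were lower at 2 h and 4 h. SUC2, a sucrose transporter gene of phloem companion cells, averaged 44.3 CPM in the control, 22.7 at 2 h and 13.7 at 4 h, with log2 changes of -0.97 and -1.69 (edgeR adjusted p 0.000268 and 1.68e-06). The root hair gene COBL9 (-0.56 and -0.70) and the xylem gene XCP1 (-0.31 and -0.28) were also lower, and CASP1, the most counted of the 7, was not called. The summed level of these 7 was 332 to 407 CPM in the control and 362 to 383 CPM at 1 h. At 2 h it was 271 to 324 CPM, and at 4 h 310 to 333 CPM. The root cap marker SMB had 23.5 to 28.3 CPM in the control and 15.8 to 17.2 at 1 h, 18.2 to 20.6 CPM at 2 h, and 21.2 to 24.7 CPM at 4 h. The part of these shifts in the results was not tested. In whole root tips, fewer cells of a type and less RNA per cell cannot be told apart.

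In the control, the 10 genes spanned a wide range of levels once counts were divided by transcript length. DOF2.2 and OBP3 were highest, at 12.1 ± 0.438 and 11.8 ± 0.644 CPM per kb (SD, n = 3), and their libraries overlapped. DAG1, DOF1.4 and OBP2 followed at 10.4, 10.0 and 9.14 CPM per kb, each overlapping the next. OBP4, DAG2 and DOF1.8 formed a group at 5.28, 5.24 and 5.16 CPM per kb that differed by less than the spread between libraries. DOF3.1, at 2.62 ± 0.367, and OBP1, at 1.00 ± 0.208, were lowest and overlapped no other member. At 4 h on DEX, DOF2.2 stood alone at the top, at 14.5 ± 0.587 CPM per kb. DAG1, now the second, had 7.91 ± 0.780, and OBP3 and OBP2 had moved down to 6.65 and 4.57 CPM per kb. OBP1 remained lowest, at 0.415 ± 0.0917.

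**Figure D1:**
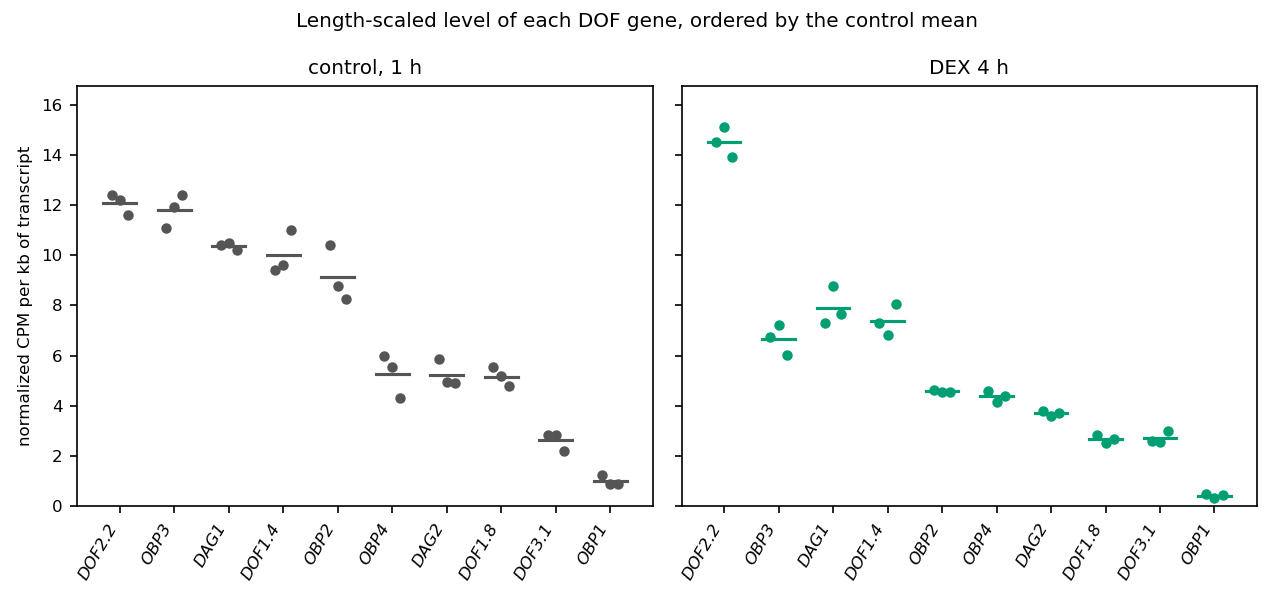
Length-scaled levels (normalized CPM per kb of the longest annotated transcript) of the 10 DOF genes in the control and at 4 h on DEX, in the order of the control means. Points are the 3 libraries of a group and lines their mean; DOF2.2 is at 12.1 in the control and 14.5 at 4 h, while OBP3 goes from 11.8 to 6.65.

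DEX for 1 h was compared with the control of the same time to ask which members differed soon after induction. Of the 10 members, 1 was called lower and 0 higher at an adjusted p under 0.05 (quasi-likelihood test of edgeR, Benjamini-Hochberg adjustment over all loci tested). Over all loci tested, 4.59% were called lower and 5.03% higher. At an unadjusted p under 0.05, 2 members were lower and 0 higher, and DESeq2 called 1 lower and 0 higher. Of 24704 loci, DESeq2 called 1886 in either direction. The share of all loci at an unadjusted p under 0.05 was not computed for this or the later comparisons. Counts of members at that threshold therefore have no background. The median log2 fold change of the members was -0.04, against -0.01 over all loci.

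The member that fell was DOF1.4. Its levels were 15.4, 15.7 and 18 CPM in the control libraries and 10.7, 11.9 and 10.9 at 1 h. The groups did not overlap, with a log2 difference of -0.55 ± 0.10 (SE; adjusted p 0.00137 in edgeR). DOF1.4 stayed under the control at 2 h, with 13.7, 13.2 and 12.9 CPM, and at 4 h, with 11.9, 11.2 and 13.2 CPM. Those changes were -0.30 (edgeR adjusted p 0.0232) and -0.44 (0.00158), so DOF1.4 was lower than the control in all 3 comparisons. Of all loci, 2.61% were called lower in each of the 3. The 2 h call did not hold in DESeq2, with an adjusted p of 0.0531. It was also lost without control replicate 3 (0.107) and without replicate 2 (0.0666) or 3 (0.0728) of DEX 2 h.

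DAG1, a repressor of seed germination, was second in size at 1 h but was not called. It had 22.2, 22.3 and 21.8 CPM in the control and 19.8, 18.1 and 13.5 at 1 h. All 3 DEX libraries lay below the control, yet they spread more widely than the control, and the log2 fold change of -0.36 ± 0.12 had an edgeR adjusted p of 0.0745. Without DEX 1 h replicate 1 it was called (-0.48, adjusted p 0.0252). DOF1.4 and DAG1 were thus 2 of 10 members wholly below the control, as were 13.9% of all loci. The other 8 members overlapped it, with log2 fold changes between -0.19 and 0.21.

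At 2 h the picture was different. Of the 10 members, 7 were called lower than the control (OBP2, OBP3, DAG1, DAG2, DOF1.4, DOF1.8 and DOF3.1) and 0 higher, where 18.5% of all loci were called lower and 16.5% higher. At an unadjusted p under 0.05 the counts were the same, 7 and 0. DESeq2 called 5 and 0, beside 6331 of 24704 loci in either direction. The 7 called genes were those whose DEX libraries all lay below the control, as did 26.3% of all loci. The median log2 fold change of the members was -0.45, against -0.01 over all loci. The count of 7 dropped to 4 without DEX 2 h replicate 2. At 4 h, 7 members were lower (OBP1, OBP2, OBP3, DAG1, DAG2, DOF1.4 and DOF1.8) and 1 was higher (DOF2.2), where 25.6% of all loci were called lower and 24.7% higher. The 7 lay wholly below the control, as did 29.9% of all loci, and DOF2.2 wholly above it, as did 29.3%. At an unadjusted p under 0.05 the counts were also 7 and 1. DESeq2 called 7 and 0, beside 9195 of 24704 loci in either direction. The median of the members was -0.47, against 0.00 over all loci. These comparisons share the control libraries, and 6 members were lower in both, where 15.9% of all loci were.

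**Figure D2:**
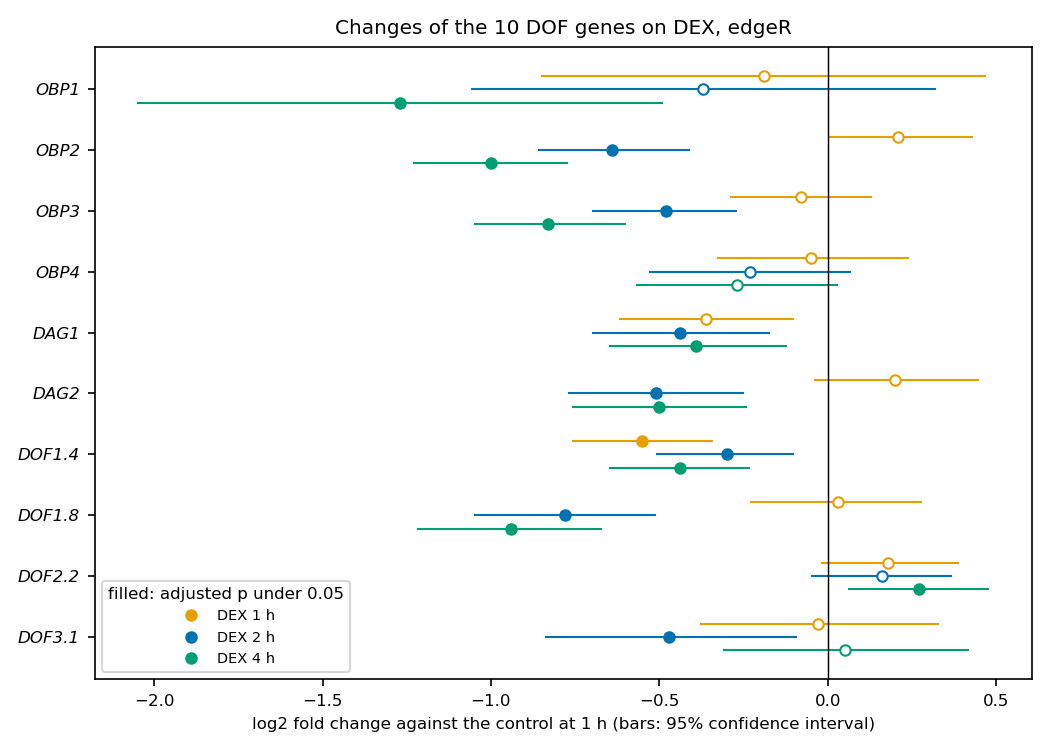
Log2 fold changes of the 10 DOF genes at 1 h, 2 h and 4 h on DEX against the control at 1 h, with 95% confidence intervals from the edgeR fit; filled points passed an adjusted p of 0.05. Only DOF1.4 is filled at 1 h, and DOF2.2 is filled to the right of 0 at 4 h, with a log2 fold change of 0.27.

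OBP2, which acts in the vasculature and in the synthesis of indole glucosinolates, gave the clearest fall among the well-counted members. Its control libraries had 32.2, 27.1 and 25.6 CPM and its 1 h libraries 36.0, 30.0 and 32.6. It then dropped to 20.2, 18.9 and 15.6 CPM at 2 h and to 14.3, 14 and 14.1 CPM at 4 h. The control and 1 h libraries overlapped, and every 2 h and 4 h library lay below them. At 4 h the mean was 50% of the control, a log2 difference of -1.0 ± 0.11 (SE, edgeR adjusted p 3.14e-06). At 2 h it was 64.4% of the control (-0.64 ± 0.11, adjusted p 0.000392).

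DOF1.8, a gene of vascular development, followed a similar course. It had 13.2, 12.4 and 11.4 CPM in the control and 14.6, 11.4 and 11.7 at 1 h. The values were 6.29, 8.09 and 7.13 CPM at 2 h and 6.80, 6.03 and 6.43 at 4 h. The first 2 groups overlapped each other and the last 2 overlapped each other, with a gap between. The log2 fold changes were -0.78 ± 0.13 at 2 h (edgeR adjusted p 0.000295) and -0.94 ± 0.13 at 4 h (2.42e-05), when the mean was 52.1% of the control. Of the vascular markers, SUC2 and XCP1 were lower at the same times as OBP2 and DOF1.8, with log2 changes of -1.69 and -0.28 at 4 h, while APL and VND7 were not called. Their part in the falls of OBP2 and DOF1.8 was not tested.

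OBP3, which modulates light signalling and growth, was also lower at 2 h and 4 h. Its control libraries had 18.4, 19.7 and 20.6 CPM and its 1 h libraries 19.0, 20.2 and 16.3. It had 14.9, 14.3 and 12.8 CPM at 2 h and 11.2, 11.9 and 9.95 at 4 h. Its 2 h libraries lay wholly below 1 h, and 4 h wholly below 2 h. The same order held for OBP2. From 2 h to 4 h edgeR called neither, with adjusted p 0.0640 for OBP3 and 0.0623 for OBP2. The log2 fold change was -0.48 ± 0.10 at 2 h (edgeR adjusted p 0.00206) and -0.83 ± 0.11 at 4 h (1.18e-05).

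OBP1, a positive regulator of the cell cycle, was the least counted member, with 6 to 28 counts per library. The counts were 26, 18 and 18 in the control, 16, 28 and 14 at 1 h, 17, 16 and 11 at 2 h and 8, 6 and 8 at 4 h. In normalized CPM, only the 4 h libraries were all below the control. Replicate 1 of 2 h, at 1.07 CPM, lay just above control replicate 2, at 1.06. At 4 h the log2 difference was -1.27 ± 0.37 (SE; adjusted p 0.00889 in edgeR), which is larger than that of OBP2 but has a wide 95% interval, from -2.05 to -0.49. At 1 h and 2 h the changes of -0.19 and -0.37 had intervals from -0.85 to 0.47 and from -1.06 to 0.32, so a change of moderate size was not detectable at this depth.

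OBP4, which restrains cell growth and root hair elongation, was not called at any time. Its levels were 11.2, 10.4 and 8.05 CPM in the control and 9.90, 9.74 and 9.13 at 1 h. They were 10.0, 8.22 and 7.06 CPM at 2 h and 8.58, 7.80 and 8.22 at 4 h. All groups overlapped the control, whose replicate 3 was low. The log2 fold change at 4 h was -0.27, with a 95% interval from -0.57 to 0.03 (edgeR adjusted p 0.119). Without control replicate 3 it was -0.40 and was called (adjusted p 0.0271).

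**Figure D3:**
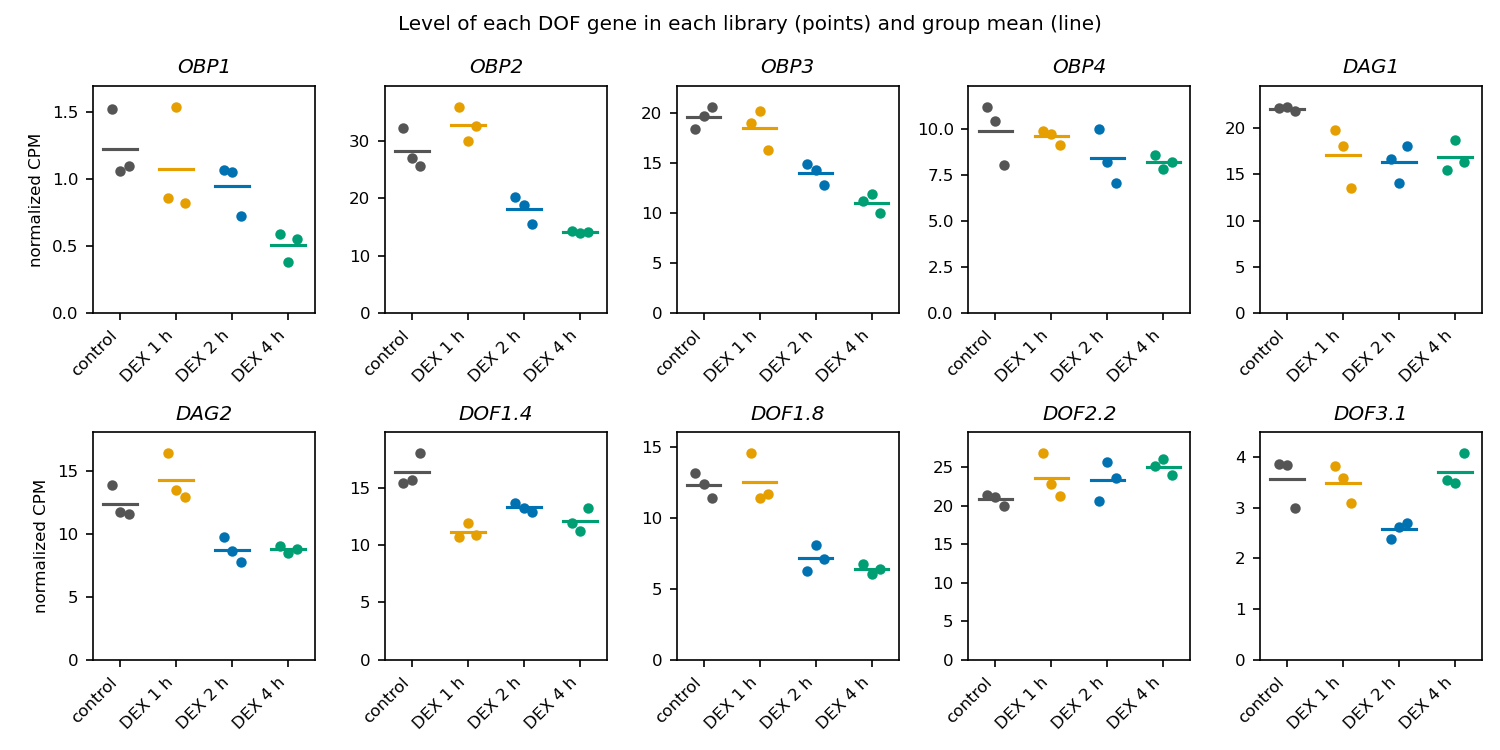
Normalized CPM of each of the 10 DOF genes in each of the 12 libraries (points), by group, with the group mean as a line; each panel has its own axis from 0. OBP2, OBP3, DAG2 and DOF1.8 are lower at 2 h and 4 h than in the control and at 1 h. DOF1.4 is lower from 1 h on, and DOF2.2 is at 24.0 to 26.1 CPM at 4 h against 19.9 to 21.4 in the control.

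DAG1 and DAG2 have opposite roles in germination, DAG1 as a repressor and DAG2 as a promoter. DAG2 had 13.9, 11.7 and 11.6 CPM in the control and 16.4, 13.5 and 12.9 at 1 h. It had 9.75, 8.61 and 7.72 CPM at 2 h and 9.02, 8.5 and 8.78 at 4 h. As with OBP2, OBP3 and DOF1.8, the control and 1 h overlapped, and the later libraries all lay below them. The log2 fold changes were 0.20 at 1 h (edgeR adjusted p 0.330), -0.51 at 2 h (0.00459) and -0.50 at 4 h (0.00301). DAG1 had 16.7, 14.1 and 18.1 CPM at 2 h and 15.5, 18.7 and 16.3 at 4 h. Those libraries were below the control and overlapped those of 1 h, with log2 fold changes of -0.44 (adjusted p 0.0124) and -0.39 (0.0164). Leaving out replicate 2 of DEX 2 h ended the 2 h call of DAG1 (adjusted p 0.0711), and leaving out replicate 1 (0.0664) or 3 (0.0555) of DEX 4 h ended the 4 h call.

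The balance of the pair was compared within each library. Per length, DAG1 was 1.78, 2.12 and 2.08 times as high as DAG2 in the control libraries and 1.35, 1.49 and 1.17 times as high at 1 h. The ratio was 1.90, 1.83 and 2.60 at 2 h and 1.91, 2.45 and 2.07 at 4 h. The 1 h libraries overlapped no other group, and the other 3 groups overlapped each other. In a two-sided exact permutation test on log2 ratios, 1 h differed from the control by -0.58 (p = 0.1, and 0.2 adjusted over 6 comparisons), which is the smallest p that 3 against 3 libraries allow. The differences of 2 h and 4 h from 1 h were 0.65 and 0.68 with the same p-values. With so few libraries the test cannot reach 0.05. The ratio is taken within a library and does not depend on the scaling.

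**Figure D4:**
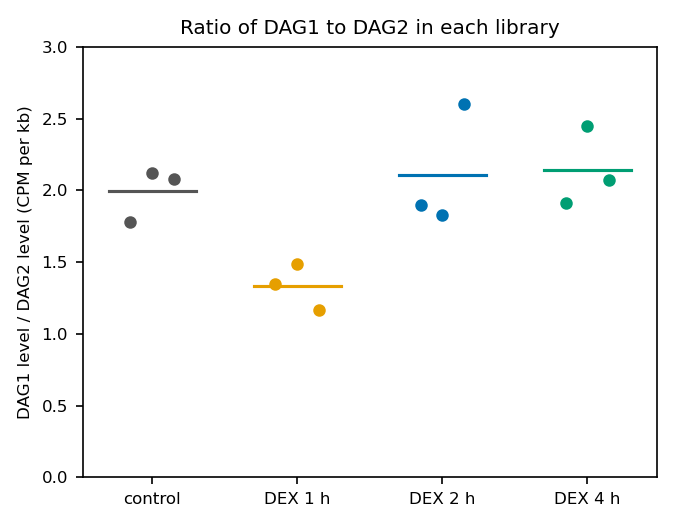
Ratio of the length-scaled level of DAG1 to that of DAG2 in each library (points) with the group mean (line). The 1 h libraries lie at 1.17 to 1.49, and the control libraries at 1.78 to 2.12.

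DOF2.2 was the member that rose. Its levels were 21.4, 21.1 and 19.9 CPM in the control, 26.8, 22.8 and 21.2 at 1 h, 20.6, 25.6 and 23.6 at 2 h and 25.1, 26.1 and 24.0 at 4 h. Only the 4 h libraries were all above the control, and the difference was small, 0.27 ± 0.10 on the log2 scale (edgeR adjusted p 0.0304). It held in 5 of 12 alternatives. It did not in DESeq2 (adjusted p 0.0512), with library totals (0.114), or without DEX 4 h replicate 1 (0.0629) or 2 (0.0920) or any one control library (0.0509, 0.0612 and 0.0894). DOF3.1 was called only at 2 h, and narrowly. It had 66, 65 and 49 counts in the control, 71, 65 and 53 at 1 h, 38, 40 and 41 at 2 h and 48, 55 and 59 at 4 h. The 2 h libraries lay below every other group. The log2 fold change against the control was -0.47 ± 0.18 (edgeR adjusted p 0.0494), a call lost in 10 of 12 alternatives. Those were DESeq2, its size factors, no filter, only the 2 groups, the replicate block, and the fits without any one DEX 2 h library or without control replicate 1 or 2, with the highest adjusted p of 0.152 without control replicate 1.

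The DEX groups were also compared with each other in the same fit. Such a comparison does not use the control means and still contains elapsed time. The control libraries still shared in the estimate of the spread. From 1 h to 2 h, 4 members fell (OBP2, OBP3, DAG2 and DOF1.8) and 0 rose, where 16.3% of all loci were called lower and 14.9% higher. The log2 changes were -0.85 ± 0.11 for OBP2 (SE, edgeR adjusted p 5.88e-05), -0.81 ± 0.13 for DOF1.8 (0.000339), -0.71 ± 0.12 for DAG2 (0.000591) and -0.40 ± 0.10 for OBP3 (0.00750). At an unadjusted p under 0.05, 5 were lower and 1, DOF1.4, was higher (0.24, adjusted p 0.0713). DESeq2 called 4 lower and 0 higher, beside 5697 of 24704 loci in either direction. From 2 h to 4 h, 0 members were called by edgeR or DESeq2, against 7.34% of all loci in edgeR and 1584 of 24704 in DESeq2. At an unadjusted p under 0.05, OBP1, OBP2 and OBP3 were lower, with log2 changes of -0.91, -0.37 and -0.34, and DOF3.1 was higher (0.52). Their adjusted p-values were 0.160, 0.0623, 0.0640 and 0.0824. OBP2 was called from 2 h to 4 h without DEX 2 h replicate 3 (-0.47, adjusted p 0.0368), with only the 2 groups (0.0416) and with the replicate block (0.0330). Between 1 h and 4 h, 5 members fell, the 4 above and OBP1 (-1.08, adjusted p 0.0243), and 0 rose, where 24.5% of all loci were called lower and 24.1% higher. At an unadjusted p under 0.05 the counts were also 5 and 0. DESeq2 called 4 lower and 0 higher, beside 8845 of 24704 loci in either direction. The OBP1 call did not hold in DESeq2 (adjusted p 0.0596) or without DEX 1 h replicate 2 (0.150) or DEX 4 h replicate 2 (0.0937).

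The sequence upstream is shown for 3 members that fell at 2 h and 4 h, those with the fewest and the most sites with the DOF core. Each window is the 300 bases before the annotated start of the locus in RefSeq TAIR10.1, with AAAG and its reverse complement CTTT in capitals.
OBP2: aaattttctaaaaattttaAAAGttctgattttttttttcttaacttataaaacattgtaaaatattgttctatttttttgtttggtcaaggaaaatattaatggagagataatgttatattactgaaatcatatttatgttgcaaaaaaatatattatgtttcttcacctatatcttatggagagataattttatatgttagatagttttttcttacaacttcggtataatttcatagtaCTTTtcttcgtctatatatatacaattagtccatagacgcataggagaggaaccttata
DOF1.8: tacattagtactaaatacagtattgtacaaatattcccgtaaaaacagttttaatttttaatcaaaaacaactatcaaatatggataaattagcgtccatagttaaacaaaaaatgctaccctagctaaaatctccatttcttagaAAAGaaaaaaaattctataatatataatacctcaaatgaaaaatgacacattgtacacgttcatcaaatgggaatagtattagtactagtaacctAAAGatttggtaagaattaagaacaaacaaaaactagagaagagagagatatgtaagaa
OBP3: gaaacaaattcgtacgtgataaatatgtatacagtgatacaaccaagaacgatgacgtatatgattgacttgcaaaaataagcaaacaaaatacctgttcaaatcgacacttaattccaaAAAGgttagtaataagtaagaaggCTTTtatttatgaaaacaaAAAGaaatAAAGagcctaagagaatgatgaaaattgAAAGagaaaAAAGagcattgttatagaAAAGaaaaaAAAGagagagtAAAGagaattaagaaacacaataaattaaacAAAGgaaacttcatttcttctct
The windows lie at chr1:2356414-2356713 on the reverse strand, chr1:24006613-24006912 on the forward strand and chr3:20526763-20527062 on the forward strand. AAAG was counted on both strands, and the windows of OBP2 and DOF1.8 held 2 sites each while that of OBP3 held 10. Among the same windows of 27443 protein-coding genes, 99.0% held at least 1 site, the median was 5, 94.6% held at least 2 and 3.91% at least 10. Of the other members, DAG1 and DOF1.4 had 7 sites each, OBP1 and DOF3.1 had 6 each and DAG2 had 4. DOF2.2, which rose, had 4 sites, and OBP4, not called, had 5. A relation between the number of sites and the change was not tested. The core TGACG bound by TGA factors was found on either strand in 1 of the 10 windows, that of OBP3, and in 21.3% of all windows. These matches describe the letters only and say nothing of binding.

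The other 26 DOF loci, DOF2.1 among them, were counted for comparison. Of these, 19 were tested. At 1 h, 6 were higher and 3 lower, at 2 h 5 and 5, and at 4 h 6 and 6. Of all loci tested, 5.03% were called higher and 4.59% lower at 1 h. The shares were 16.5% and 18.5% at 2 h, and 24.7% and 25.6% at 4 h. The median log2 fold changes of the 19 DOF loci were -0.10, -0.26 and -0.37. Whether the members differ from these loci was not tested.

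Genes known as partners or targets of the OBP and DAG factors were counted as a list of 14, of which 13 were tested. Of the 13, 1 was higher and 1 lower at 1 h, 3 were higher and 3 lower at 2 h, and 4 were higher and 4 lower at 4 h. The median log2 fold change was 0.13, -0.09 and -0.09, against -0.01, -0.01 and 0.00 over all loci. Over all loci tested, the shares called higher and lower were 5.03% and 4.59% at 1 h. They were 16.5% and 18.5% at 2 h, and 24.7% and 25.6% at 4 h. Without DEX 4 h replicate 3 the calls at 4 h were 5 in place of 8, and without control replicate 3 those at 1 h were 1 in place of 2.

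CYP83B1, an enzyme of indole glucosinolate synthesis whose gene is a target of OBP2, had 324, 349 and 304 CPM in the control and 381, 277 and 262 at 1 h. It had 127, 139 and 116 CPM at 2 h and 111, 118 and 107 at 4 h. It fell by 1.35 at 2 h and by 1.54 at 4 h on the log2 scale (edgeR adjusted p 2.66e-06 and 3.50e-07), while 1 h overlapped the control. Without DEX 1 h replicate 1, its highest 1 h library, it was called lower at 1 h (-0.27, adjusted p 0.0442). DOF2.3, a target of OBP1 and itself a CYCLING DOF FACTOR, had 5.85, 6.50 and 6.28 CPM in the control and 41.5, 31.1 and 28.7 at 1 h. It was higher at all 3 times, with log2 fold changes of 2.44, 1.34 and 1.17, and fell from 1 h to 2 h (-1.10, adjusted p 1.41e-05). CYCD3;3, a D-type cyclin and another OBP1 target, was called at 4 h (0.30, adjusted p 0.0139), which did not hold without control replicate 1 (0.0734) or replicate 3 of DEX 4 h (0.0654).

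GSTF8, a glutathione S-transferase gene whose promoter binds OBP1 and OBF factors, had 1280 ± 102 CPM in the control, 2170 ± 29.2 at 2 h and 2250 ± 174 at 4 h (SD, 3 libraries each). It rose at both times, by 0.76 and 0.81 on the log2 scale (edgeR adjusted p 9.29e-05 and 1.71e-05). Of the OBF partners, TGA4 was higher at 4 h (0.27, adjusted p 0.0174) and TGA5 was not called, with log2 fold changes of -0.07, -0.09 and -0.13. The TGA4 call was lost with library totals (0.0683) and without DEX 4 h replicate 3 (0.0603). Genes named for their response to OBP3 varied. ORG2, a bHLH gene of the iron deficiency response, had 46, 40 and 31 counts in the control, 114, 54 and 45 at 1 h, 15, 10 and 6 at 2 h and 1, 10 and 4 at 4 h. Its log2 fold changes were -1.78 at 2 h (adjusted p 0.00724) and -2.74 at 4 h (0.000510). The related ORG3 was called at 4 h (-1.87, adjusted p 0.0102). At 2 h (-1.01, adjusted p 0.108) it was called only in DESeq2 (0.0227), with only the 2 groups (0.00146) and with the replicate block (0.0123). ORG1 was not called against the control.

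**Figure D5:**
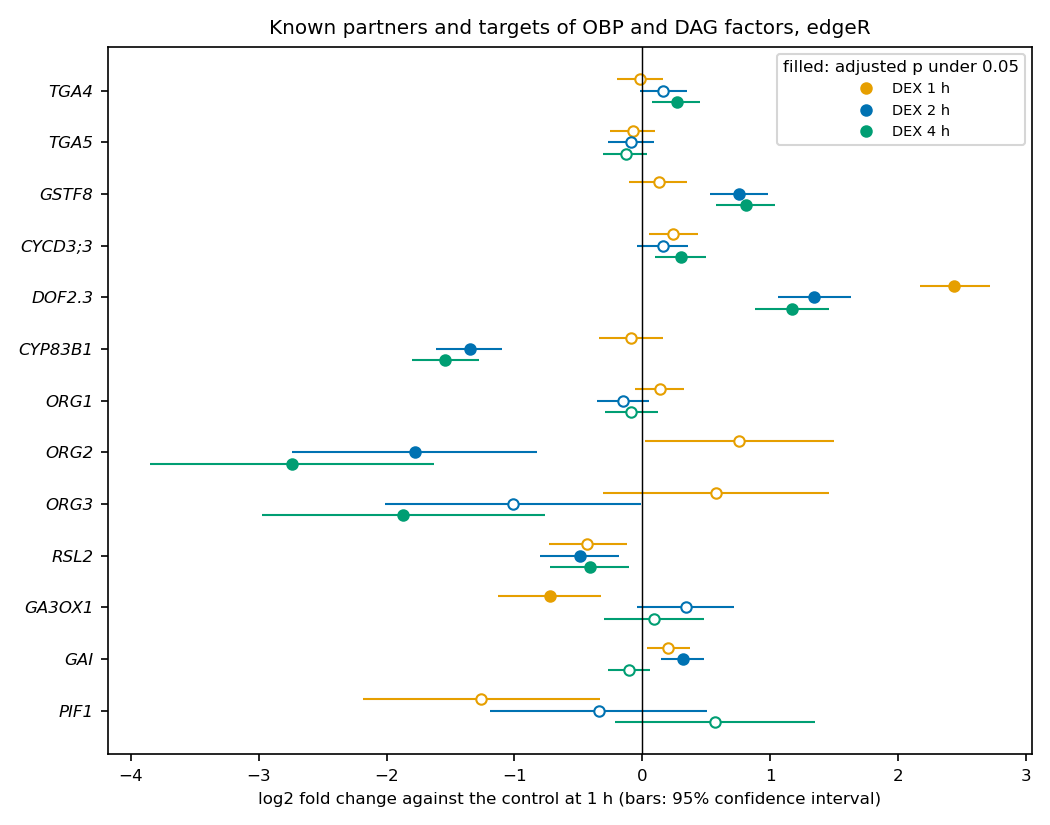
Log2 fold changes against the control at 1 h of 13 known partners or targets of OBP and DAG factors, with 95% confidence intervals; filled points passed an adjusted p of 0.05 in edgeR. CYP83B1 lies at -1.35 and -1.54 at 2 h and 4 h, and DOF2.3 lies at 2.44 at 1 h.

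RSL2, a root hair factor repressed by OBP4, was lower at 2 h (-0.49, edgeR adjusted p 0.0161) and 4 h (-0.41, 0.0278). Without control replicate 2 both calls were lost (adjusted p 0.108 and 0.176). The 2 h call also rested on replicate 2 of DEX 2 h (0.0890), and the 4 h call on replicates 1 (0.0745) and 3 (0.0706) of DEX 4 h. GA3OX1, a gibberellin synthesis gene repressed by DAG1, had 7.02, 7.21 and 9.39 CPM in the control, 3.93, 5.28 and 5.09 at 1 h, 12.9, 8.42 and 8.45 at 2 h and 9.39, 8.69 and 7.05 at 4 h. It was lower at 1 h (-0.72, adjusted p 0.0234) and was higher at 2 h than at 1 h (1.06, 0.000845). Omitting control replicate 3 (0.109) or replicate 1 of DEX 1 h (0.0847) ended the 1 h call. GAI, a DELLA protein that acts with DAG1, was higher at 2 h (0.32, adjusted p 0.00520) and lower at 4 h than at 2 h (-0.42, 0.00497). PIF1, which acts upstream of DAG1 in seeds, had 5 to 30 counts per library and was not called against the control, but was higher at 4 h than at 1 h (1.83, adjusted p 0.00197). CYP707A2, an abscisic acid hydroxylase gene repressed by DAG1 in seeds, had at most 4 counts in any library and was not tested.

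The loci whose course over the 12 libraries was most like that of OBP1, OBP2 and DOF1.8, the members with the largest called changes, were found by the root mean square difference between centred log2 CPM profiles. Among 17496 loci whose mean log2 CPM reached 1, those nearest to OBP2 were SHM7 (AT1G36370), at 0.10 log2 units, and AT1G10650, at 0.11, where the median locus was at 0.53. For DOF1.8 they were AT5G23840 and AT5G58160, both at 0.10, against a median of 0.48. For OBP1 they were AT4G22305, at 0.20, and AT5G08230, at 0.23, with a median of 0.53. SHM7, for example, had log2 fold changes of 0.15, -0.57 and -0.90 at the 3 times, beside 0.21, -0.64 and -1.0 for OBP2. SHM7 was picked for its likeness over these same 12 libraries, so this closeness follows from the choice. The medians describe a typical locus and do not gauge the nearest of 17496.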

How the data were processed

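RNA-seq of 12 root meristem samples was used. The authors deposited 1 file per library of expected counts (estimated counts) per locus, with no header and not scaled for depth. Exactly whole numbers made up 82.23% to 83.29% of a library's values, and 88.98% to 90.52% lay within 0.001 of one. The unit was inferred from this. Per the submitters' processing notes, CASAVA, GSNAP, HTSeq, edgeR and the build TAIR10 were used, with no role or version given. HTSeq by itself gives whole counts, so how the fractional values arose is not known here. The strand setting of the counting is not given in the sources used here.

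Counts were rounded and tested with edgeR 4.0.16 in R 4.3.3 (filterByExpr, minimum count 10 and minimum total 15; TMM factors; robust quasi-likelihood fit with group as the only term over all 12 libraries). Benjamini-Hochberg adjustment covered 19733 loci, and loci under 0.05 were called. The standard error is the absolute log2 fold change divided by the square root of F. Normalized CPM use TMM-scaled totals. Transcript lengths, sequences and symbols came from RefSeq TAIR10.1, matched by locus tag for 10 of 10 members. Alternatives were DESeq2 1.42.0, its size factors, library totals, no filter, only the 2 groups compared, a replicate block, and leaving out each library.

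The members, lists and tests were chosen with earlier results of these data known. All members and the listed partners or targets could be named, other DOF loci were given as counts and medians, and for the 3 members with the largest called change the 2 loci of most similar course were named. P-values measure the spread between biological repeats as labelled. Precision is limited by the spread between the 3 libraries of a group and, most for OBP1, by the counts. The members had 6 to 669 counts per library.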

Additional observations from a re-analysis of the deposited data

Results flagged for a closer look

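The change on DEX differed between times for 5 members, tested in edgeR between DEX groups. These comparisons do not use the control means, though the fit held all 12 libraries. Adjusted p-values were at most 0.0243. From 1 h to 2 h the log2 change was -0.85 for OBP2, -0.40 for OBP3, -0.71 for DAG2 and -0.81 for DOF1.8. From 1 h to 4 h it was -1.08 for OBP1, -1.22 for OBP2, -0.75 for OBP3, -0.70 for DAG2 and -0.97 for DOF1.8. Of all loci, 16.3% and 24.5% were called lower in the same comparisons. Hours between harvests and hours on DEX cannot be told apart in these differences. Single deviating libraries were not tested for, since every group had 3 libraries.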

How the results depend on the processing

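Over 720 recomputed log2 fold changes of members, 686 kept their side of the threshold, 27 lost a call and 7 gained one, and no called value changed sign. The number of members called against the control varied when each library was left out in turn. At 1 h it ran from 1 to 2 (1 with all libraries), at 2 h from 4 to 6 (7 with all) and at 4 h from 6 to 8 (8 with all). From 1 h to 2 h it ran from 4 to 5, from 2 h to 4 h from 0 to 1, and from 1 h to 4 h from 4 to 5. The 4 at 2 h came without DEX 2 h replicate 2 and the 2 at 1 h without DEX 1 h replicate 1. From 2 h to 4 h, 1 member was called with only the 2 groups and 1 with the replicate block, OBP2 in each case, and the cause was not tested. Same-numbered replicates of different groups had correlations of their deviations between -0.108 and 0.149, and 3 of 18 were over 0.1. Differently numbered replicates were not compared, so these values cannot show whether the numbers pair the samples. The block changed 2 calls of members, that of OBP2 and that of DOF3.1 at 2 h (adjusted p 0.0646). Library totals moved the median of all loci by at most 0.09 on the log2 scale. Depth limits OBP1 most, with 6 to 28 counts per library, and DOF3.1, with 38 to 71.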
